A study of Homo sapiens with 6 samples.

Results

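Genes of the lysosome, of the V-ATPase proton pump and of autophagy were examined in HCT116 cells with and without overexpression of SNORA28. HCT116 is an established human colorectal carcinoma line, and SNORA28 belongs to the H/ACA small nucleolar RNAs, which guide pseudouridylation of other RNAs. The set was a list of 49 genes, chosen with earlier results of these data known. All of them were found by symbol among the 60612 genes of the deposited tables. Poly(A)-selected RNA was sequenced in 6 libraries. In 3 of them the cells had received LV-NC, the negative-control lentivirus, and in the other 3 LV-SNORA28, the lentivirus that overexpresses SNORA28. Both groups therefore carried a lentivirus, and they differed by its insert. No further treatment separated the groups, and all samples came from the same cell line. The methods do not say whether the replicates were separate infections, so the p-values measure the spread between these libraries, which may be technical.

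Lysosomes digest proteins, sugars and lipids delivered by endocytosis and autophagy, with hydrolases that need the acid lumen made by the V-ATPase. Autophagy delivers cytoplasm to the lysosome in vesicles whose membranes carry lipid-linked proteins of the ATG8 family, attached by a ubiquitin-like conjugation system and started by the kinase ULK1. The lysosomal surface also holds Ragulator, a scaffold that anchors the Rag GTPases and with them the growth kinase mTORC1, which restrains ULK1 and the transcription factors TFEB and TFE3. These factors bind an E-box palindrome in the promoters of many lysosomal genes.

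SNORA28, which checks the labels, had 0.92, 0 and 0.64 FPKM in LV-NC, against 15.01, 13.66 and 15.2 FPKM in LV-SNORA28. FPKM counts fragments per kilobase of transcript, scaled to the mapped fragments of the library. The transcripts encoded by the mitochondrial genome took 42.7% to 47.7% of the FPKM sum per LV-NC library and 35.9% to 38.3% per LV-SNORA28 library, so the groups did not overlap in this respect. With each library scaled to the sum of the other genes, the same 10 lysosomal and autophagy genes passed the test as without this scaling. Epithelial markers were present in every library, from CDH1 (9.65 to 14.38 FPKM) through EPCAM (96.86 to 115.21 FPKM) to KRT19 (357.67 to 411.55 FPKM). Of 11 markers of fibroblasts, blood and endothelium, 10 stayed at or below 0.16 FPKM in every library, with COL1A2 and DCN at 0, and COL1A1 lay between 3.16 and 4.46 FPKM. Sequencing depth is not given with FPKM, so no counting error could be attached to a value.

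The promoters of the set are shown first, since some of them carry the sequence by which TFEB and TFE3 recognise lysosomal genes. A window of 250 bases before to 50 bases after the RefSeq start (build GRCh38.p14) was found for 40 of the 49 genes. None was found for LAMP2, CTSB, HEXA, PSAP, ATP6V0E1, ATP6V1A, ATP6V1B2, ATP6V1C1 and ATP6V1H. The palindrome TCACGTGA stood in the windows of 7 of these 40 genes (17.5%), against 2.36% of the 8814 tested genes with an entry and 1.18% of all 27305 genes with an entry. Its inner 6 bases, CACGTG, stood in 11 of the 40 (27.5%), against 13.0% and 8.77%. Both strands are covered because either motif reads the same on the other strand, and each TCACGTGA contains a CACGTG. Such a match describes the letters of the window and is not evidence of binding. MCOLN1 and CTSA were the 2 carriers of TCACGTGA whose mRNA passed the test below, both of them lower in LV-SNORA28, and their windows are given whole. All sequences read 5′ to 3′ on the strand of the gene. The capitals mark TCACGTGA, and in CTSA also a CACGTG without the outer bases.
MCOLN1 (GRCh38.p14 chr19:7522374-7522673, plus strand): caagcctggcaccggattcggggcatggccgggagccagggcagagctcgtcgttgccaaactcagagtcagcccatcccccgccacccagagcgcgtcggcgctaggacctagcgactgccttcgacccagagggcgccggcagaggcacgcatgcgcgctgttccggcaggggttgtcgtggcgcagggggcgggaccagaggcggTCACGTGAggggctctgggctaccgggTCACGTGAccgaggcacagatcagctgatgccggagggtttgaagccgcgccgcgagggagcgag
CTSA (GRCh38.p14 chr20:45891085-45891384, plus strand): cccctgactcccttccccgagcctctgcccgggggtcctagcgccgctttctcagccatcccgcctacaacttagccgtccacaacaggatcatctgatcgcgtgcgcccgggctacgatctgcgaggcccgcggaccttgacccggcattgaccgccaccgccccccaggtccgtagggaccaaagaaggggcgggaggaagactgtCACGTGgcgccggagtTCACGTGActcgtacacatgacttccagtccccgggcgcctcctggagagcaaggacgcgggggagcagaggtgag

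The other 5 carriers are shown as short stretches of 10 bases on either side of the motif in capitals, to compare its flanks. GAA and LAMP1 each held 2 copies of TCACGTGA, of which the copy farther from the start is shown.
GAA (GRCh38.p14 chr17:80101494-80101521, plus strand): ggaggccgcgTCACGTGAcccaccgcgg
LAMP1 (GRCh38.p14 chr13:113297200-113297227, plus strand): acccgcgggaTCACGTGAcgcccgggcg
ATP6V0D1 (GRCh38.p14 chr16:67481200-67481227, minus strand): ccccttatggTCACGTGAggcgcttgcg
ATP6V1G1 (GRCh38.p14 chr9:114587700-114587727, plus strand): cgctgtgcggTCACGTGAcaacgggggc
ATG3 (GRCh38.p14 chr3:112561941-112561968, minus strand): gagtctagtgTCACGTGAggccccggtg

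In MCOLN1 the 2 copies begin 42 and 15 bases before the start. LAMTOR4, the carrier of the inner motif with the largest difference between the groups, has its CACGTG 14 bases before the start, in capitals below.
LAMTOR4 (GRCh38.p14 chr7:100148894-100148919, plus strand): cggctgcaagCACGTGaccggggcct

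Across the set, 48 genes had a mean of at least 1 FPKM and were tested; TFEB was below this level. The measure of change is the difference of log2(FPKM + 1) between LV-SNORA28 and LV-NC, here called the log2 difference, which understates the change of genes with low values. At an adjusted p below 0.05 in limma, 6 of the 48 genes (12.5%) were higher in LV-SNORA28, against 6.81% of the 12076 genes tested, and 4 (8.33%) were lower, against 2.10%. The set is more abundant than most genes tested, and calls were more frequent among abundant genes. At a mean of at least 5 FPKM, 7 of 40 genes of the set were higher and 2 lower. Of all 6241 genes at that level, 693 were higher and 217 lower. With any library left out of the main fit, 3 to 5 genes of the set were called higher and 0 to 1 lower. Calls over all 12030 to 12184 genes tested fell too, to between 188 and 492 higher and between 90 and 137 lower. In the main fit these were 822 and 254. The excess of lower genes thus depends on the fit. With all 6 libraries, a block for the replicate number or no filter called 0 of the set lower, against 132 and 91 of all genes tested. A fit without a variance trend called 2 lower. Quantile normalization, scaling to the nuclear FPKM sum and a pseudocount of 0.1 each kept 4. The 6 higher genes were GABARAP, LAMTOR4, CTSB, ULK1, GABARAPL2 and ATP6V1A. The 4 lower genes were LAMTOR3, MCOLN1, ATP6AP1 and CTSA. In bulk RNA, more transcript per cell and more cells with the transcript cannot be told apart. The set moved in both directions, and its median log2 difference of 0.06 lay beside 0.09 for all genes tested. Quantile normalization turned the sign of the first, to -0.034, and moved the second to -0.00127. The groups did not overlap in 15 of the 48 genes with higher values in LV-SNORA28 (31.25%, against 27.0% of all genes tested) and in 8 with lower values (16.7%, against 8.16%). The cut-offs of the study (a change above 1.5-fold at an unadjusted p below 0.05) were applied to the log2 difference. They called 6 of the 48 genes (12.5%), against 3.79% of all genes tested. All 6 were higher: GABARAP, CTSB, LAMTOR4, ATP6V1C1, ULK1 and MAP1LC3B. LAMTOR3, which was lower, fell short of 1.5-fold on this scale. Its plain FPKM means, with a ratio of 0.664 (limma unadjusted p 0.000724), lay just beyond 1.5-fold.

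**Figure D1:**
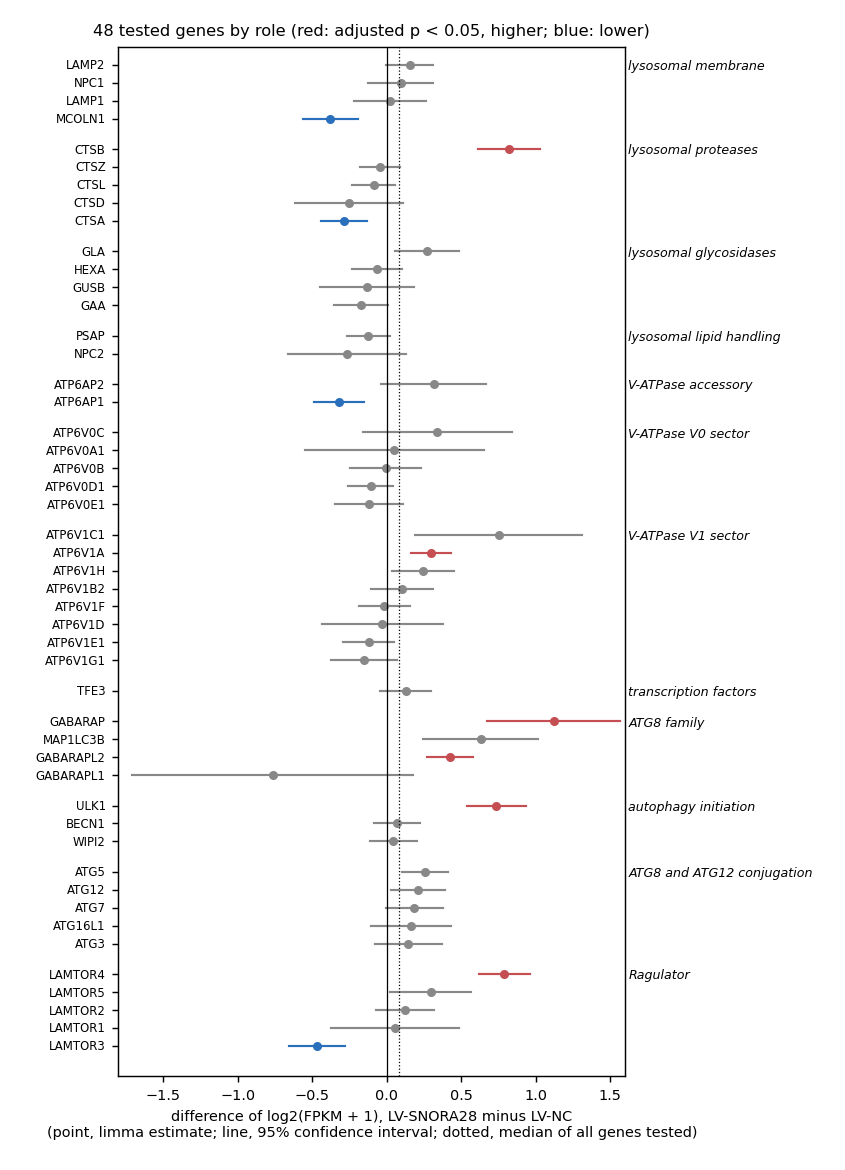
Difference of log2(FPKM + 1), LV-SNORA28 minus LV-NC, for the 48 tested genes, grouped by role; points are limma estimates from 3 libraries per group and lines are 95% confidence intervals. GABARAP at 1.12 lies farthest to the right, the 5 conjugation genes all lie to the right of 0 without passing the test, and GABARAPL1 at -0.76 has the widest interval.

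Of the ATG8 family, GABARAP and GABARAPL2 were higher, and GABARAP had the largest log2 difference of the 48 genes. GABARAP (ENSG00000170296; GRCh38 chromosome 17, 7240008 to 7242449, minus strand), a vesicle-bound adaptor that also acts late in autophagosome formation, measured 21.83, 14.59 and 14.29 FPKM in LV-NC, against 33.31, 34.5 and 44.86 FPKM in LV-SNORA28. All 3 LV-SNORA28 libraries lay above the highest control, and within LV-NC replicate 1 stood above the other 2. The mean rose 2.22-fold, with a log2 difference of 1.12 (SE 0.19) and an adjusted p of 0.0197 in limma. This call was lost without LV-NC replicate 2 or 3 and without LV-SNORA28 replicate 2 or 3, with adjusted p-values of up to 0.0661.

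GABARAPL2 (ENSG00000034713; chromosome 16, 75566375 to 75577881, plus strand), its close relative, measured 11.78, 11.3 and 12.13 FPKM in LV-NC, against 15.79, 17.06 and 15.48 FPKM in LV-SNORA28. The spread within each group was small beside the gap between them. Its mean rose 1.37-fold (log2 difference 0.43, SE 0.06, limma adjusted p 0.0158), a call lost without LV-SNORA28 replicate 2 (adjusted p 0.0658) or 3 (0.0501).

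MAP1LC3B, which encodes the LC3 protein commonly used to mark autophagosomes, had 15.78, 18.53 and 16.77 FPKM in LV-NC and 30.8, 20.55 and 30.52 FPKM in LV-SNORA28. All values of LV-SNORA28 were above the controls, but its replicate 2 lay close to them. The log2 difference of 0.63 (SE 0.16) did not pass, with a limma adjusted p of 0.0599, and was 0.82 without that library, with an adjusted p of 0.0221; over all alternatives the adjusted p ran from 0.0221 to 0.170. MAP1LC3B2, a near-identical copy, had means of 1.47 and 2.26 FPKM in LV-NC and LV-SNORA28, so the split of reads between the copies is uncertain.

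GABARAPL1, the remaining family member measured here, had a negative difference that did not pass. It had 9.54 and 10.51 FPKM in LV-NC replicates 1 and 2, but 2.96 FPKM in LV-NC replicate 3 and 4.08, 3.51 and 3.29 FPKM in LV-SNORA28. LV-NC replicate 3 thus lay below every LV-SNORA28 library. The log2 difference was -0.76 (SE 0.39) with a limma adjusted p of 0.263. Without LV-NC replicate 3 it was -1.26, with an adjusted p of 0.0135, the lowest of its alternatives, which reached 0.506.

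Within a library the ATG8 transcripts can be set against each other, which does not depend on how the library was scaled. GABARAP made up 31.5% ± 5.26 (SD, n = 3) of the summed FPKM of the 4 genes in LV-NC, against 44.3% ± 4.15 in the LV-SNORA28 libraries. GABARAPL1 made up 16.2%, 19.1% and 6.41% in LV-NC and 4.86%, 4.64% and 3.49% in LV-SNORA28. Neither share overlapped between the groups. For GABARAPL1 this came with a larger family sum in LV-SNORA28, since its own FPKM in LV-NC replicate 3 was the lowest of the 6 libraries. The shares of MAP1LC3B (32.3% ± 4.94 and 32.1% ± 4.76) and of GABARAPL2 (22.3% ± 3.48 and 19.3% ± 3.09) overlapped. The summed FPKM of the family was 46.15 to 58.93 in LV-NC and 75.62 to 94.15 in LV-SNORA28.

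**Figure D2:**
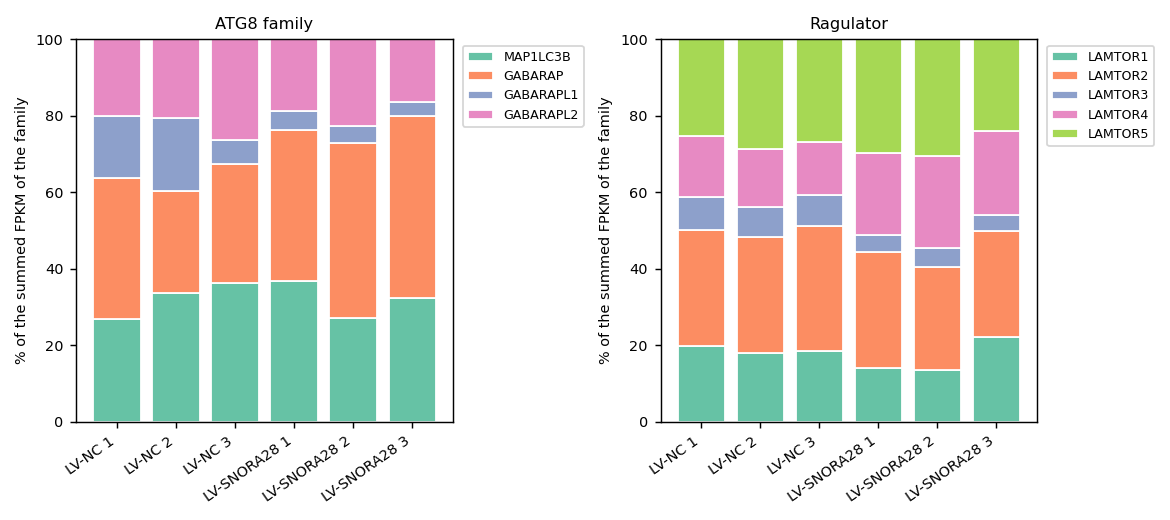
Percent of the summed FPKM of the ATG8 family (left) and of Ragulator (right) taken by each gene in each of the 6 libraries; every bar adds up to the whole family. GABARAP takes between 26.6% and 37.0% in LV-NC and between 39.7% and 47.6% in LV-SNORA28, and LAMTOR4 between 13.8% and 15.9% and between 21.4% and 24.0%.

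Upstream of the ATG8 proteins, ULK1 (ENSG00000177169; chromosome 12, 131894622 to 131923150, plus strand), the kinase that initiates autophagy, was higher. It had 2.8, 2.39 and 2.34 FPKM in LV-NC and 4.97, 4.55 and 5 FPKM in LV-SNORA28. The lowest LV-SNORA28 library exceeded the highest control by more than the whole range of either group. The mean rose 1.93-fold, with a log2 difference of 0.74 (SE 0.08) and an adjusted p of 0.00696 in limma. The other initiation genes gave no call: BECN1, a subunit of the lipid kinase complex that marks the forming vesicle, had a log2 difference of 0.07 (95% interval -0.08 to 0.22), and WIPI2, which reads that lipid mark, 0.04 (-0.11 to 0.20). PSME3, which overlaps BECN1 on the opposite strand, had means of 14.8 and 33.6 FPKM.

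The conjugation genes had small positive differences. ATG5 and ATG12 form the conjugate that, with ATG16L1, sets the site of ATG8 lipidation, ATG7 is the activating enzyme and ATG3 the transferring enzyme. None of the 5 passed in limma, with log2 differences between 0.15 and 0.26, and 2 of them (ATG5 and ATG12) had an unadjusted p below 0.05. ATG5 came closest, with 6.11, 6.54 and 6.46 FPKM in LV-NC and 7.93, 8 and 7.49 FPKM in LV-SNORA28 (log2 difference 0.26, SE 0.06, adjusted p 0.0551). ATG5, ATG7 and ATG12 had groups that did not overlap, and ATG3 and ATG16L1 overlapped. Of all genes tested, 27.0% were higher without overlap, and the median log2 difference was 0.09, with 33.3% of the genes below 0. AP3S1, which overlaps ATG12 on the opposite strand, had means of 53.8 and 116.4 FPKM. VGLL4, on the opposite strand over ATG7, had 3.22 and 5.25 FPKM. The libraries were dUTP-stranded, but the strand setting of the processing is not given. An effect of these neighbours on the values was not tested.

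Ragulator moved in opposite directions among its own subunits. LAMTOR4 and LAMTOR5 form a roadblock-domain pair in the complex, LAMTOR2 and LAMTOR3 form the other, and LAMTOR1 wraps around both and tethers them to the membrane. LAMTOR4 (ENSG00000188186; chromosome 7, 100148912 to 100155944, plus strand) measured 8.27, 8.27 and 8.07 FPKM in LV-NC, against 13.79, 16.1 and 14.91 FPKM in LV-SNORA28. It had the smallest adjusted p of the set (0.00399 in limma), with a 1.82-fold higher mean and a log2 difference of 0.79 (SE 0.07). TRAPPC14, which overlaps it on the opposite strand, had means of 4.07 and 4.10 FPKM.

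LAMTOR3 (ENSG00000109270; chromosome 4, 99878336 to 99894428, minus strand) was lower. It had 4.47, 4.39 and 4.7 FPKM in LV-NC and 2.89, 3.32 and 2.8 FPKM in LV-SNORA28, without overlap. The mean fell by 33.6%, to a log2 difference of -0.47 (SE 0.08), which had a limma adjusted p of 0.0205. Only without LV-SNORA28 replicate 2 did its call hold among the 6 fits that left out a library, with adjusted p-values between 0.0445 and 0.0795. LAMTOR2, the partner of LAMTOR3, had a log2 difference of 0.12 (95% interval -0.07 to 0.31), and LAMTOR5, the partner of LAMTOR4, 0.30 (0.03 to 0.57; adjusted p 0.148).

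LAMTOR1 had 10.28, 9.95 and 10.76 FPKM in LV-NC and 9.08, 9.13 and 14.88 FPKM in LV-SNORA28, so 1 library carried its higher mean. The share of LAMTOR3 in the summed FPKM of Ragulator was 8.20% ± 0.338 (SD, n = 3) in LV-NC, against 4.53% ± 0.397 in the LV-SNORA28 libraries. That of LAMTOR4 was 14.9% ± 1.02 and 22.5% ± 1.31. Neither overlapped between the groups.

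**Figure D3:**
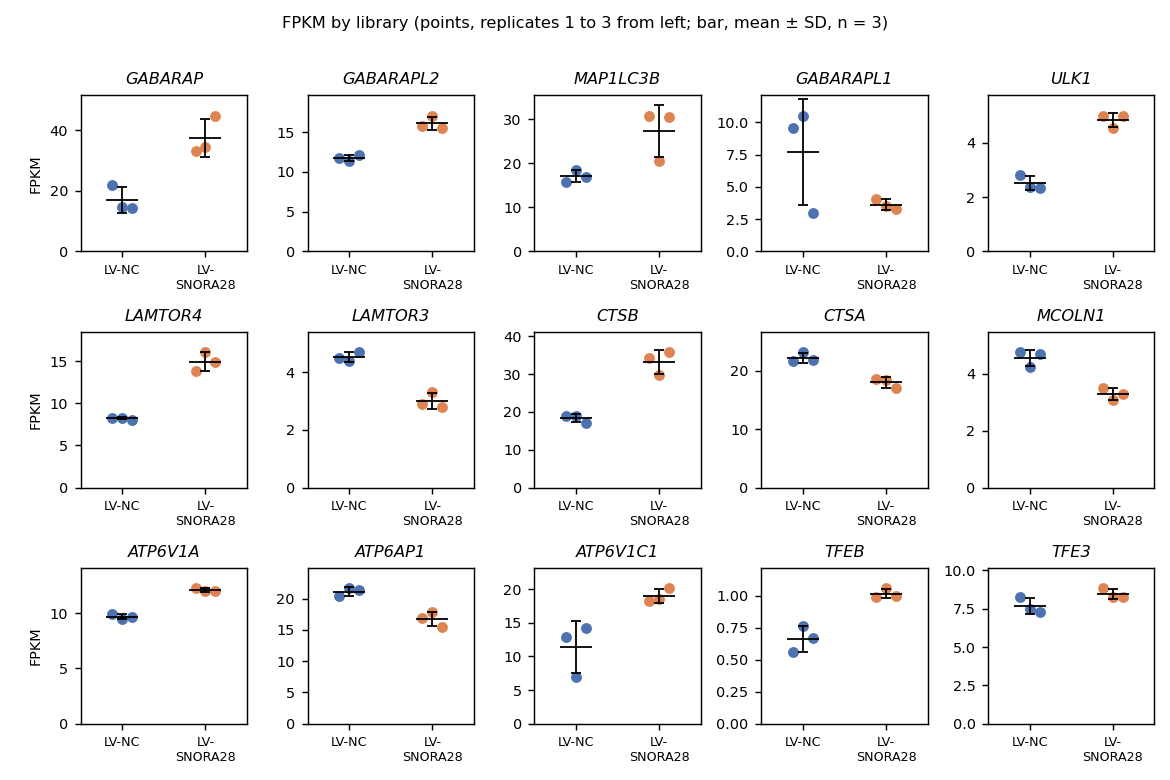
FPKM in each library for the 10 genes that passed the test and for MAP1LC3B, GABARAPL1, ATP6V1C1, TFEB and TFE3; each vertical axis starts at 0, points are replicates 1 to 3 and bars are means ± SD (n = 3). LV-NC replicate 3 stands apart in GABARAPL1 at 2.96 FPKM and LV-NC replicate 2 in ATP6V1C1 at 6.98 FPKM.

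Among the lysosomal proteases, CTSB, a cysteine protease, rose and CTSA, a serine carboxypeptidase that also stabilises lysosomal glycosidases, fell. CTSB (ENSG00000164733, chromosome 8) measured 19.03, 18.84 and 17.19 FPKM in LV-NC, against 34.22, 29.73 and 35.92 FPKM in LV-SNORA28. Every LV-SNORA28 library was well above every control. The mean rose 1.81-fold (log2 difference 0.82, SE 0.09, limma adjusted p 0.00634). Like ULK1 and LAMTOR4, it passed in every alternative fit in which it was tested.

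CTSA (ENSG00000064601; chromosome 20, 45890144 to 45898949, plus strand) had 21.65, 23.26 and 21.78 FPKM in LV-NC and 18.67, 18.49 and 17.01 FPKM in LV-SNORA28. Each LV-SNORA28 value was below each control, and the mean fell by 18.8%. The log2 difference was -0.29 (SE 0.06) with a limma adjusted p of 0.0445, which rose to between 0.0738 and 0.136 when any library was left out. PLTP, on the opposite strand over part of CTSA, had means of 1.06 and 1.72 FPKM.

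The other 3 proteases gave no call, although they were the more abundant ones in LV-NC. CTSD, the main aspartic protease, had 46.04, 46.78 and 46.23 FPKM in LV-NC and 45.21, 43.12 and 29.84 FPKM in LV-SNORA28, without overlap but with a low value in LV-SNORA28 replicate 3 (log2 difference -0.25, 95% interval -0.62 to 0.11). CTSZ, with a mean of 69.7 FPKM in LV-NC, had a log2 difference of -0.05 (-0.18 to 0.09). CTSL had -0.09 (-0.23 to 0.06).

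Sugar- and lipid-degrading enzymes did not pass either. GLA, the alpha-galactosidase, was the exception in direction among 4 glycosidases, with 2.44, 2.57 and 3.05 FPKM in LV-NC and 3.64, 3.24 and 3.41 FPKM in LV-SNORA28 (log2 difference 0.27, limma adjusted p 0.112). RPL36A, an abundant gene that overlaps GLA on the opposite strand, had means of 78.3 and 68.0 FPKM. GAA, HEXA and GUSB had log2 differences of -0.17, -0.06 and -0.13, and of these only GAA had groups that did not overlap. PSAP, the precursor of the saposins that help enzymes reach their lipids, was the most abundant gene of the set, with 222.33, 205.68 and 208.47 FPKM in LV-NC and 203.61, 191.66 and 188.86 FPKM in LV-SNORA28. Its groups did not overlap, but the log2 difference of -0.12 (SE 0.06) had a limma adjusted p of 0.245.

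Of the membrane proteins, MCOLN1 alone passed. MCOLN1 (ENSG00000090674; chromosome 19, 7522624 to 7534009, plus strand), the lysosomal calcium release channel, had 4.77, 4.25 and 4.69 FPKM in LV-NC and 3.49, 3.09 and 3.28 FPKM in LV-SNORA28. No LV-SNORA28 library reached the lowest control. Its mean fell by 28.1% (log2 difference -0.38, SE 0.08, limma adjusted p 0.0334), and its adjusted p was between 0.0516 and 0.116 with any library left out. PNPLA6, which overlaps MCOLN1 on the same strand, had means of 10.4 and 12.3 FPKM. LAMP1 and NPC1, a major glycoprotein and the cholesterol transporter of the lysosomal membrane, had log2 differences of 0.02 (95% interval -0.22 to 0.26) and 0.09 (-0.12 to 0.31), and LAMP2 had 0.15 (adjusted p 0.191).

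The V-ATPase has a cytosolic V1 sector, which hydrolyses ATP, and a membrane V0 sector, which carries the protons. Of its 15 genes in the set, 1 was called higher and 1 lower, where 6.81% and 2.10% of all genes tested were called. The higher count thus lies near the share of all genes. ATP6V1A (ENSG00000114573; chromosome 3, 113746770 to 113812056, plus strand), the catalytic subunit, had 9.91, 9.48 and 9.61 FPKM in LV-NC and 12.27, 11.97 and 12.03 FPKM in LV-SNORA28. The replicates of each group lay close together, and the groups were apart. The mean rose 1.25-fold (log2 difference 0.30, SE 0.06, limma adjusted p 0.0282), and the adjusted p was between 0.0510 and 0.0991 with any library left out and 0.0814 after quantile normalization.

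ATP6AP1 (ENSG00000071553; chromosome X, 154428633 to 154436516, plus strand), an accessory protein needed for assembly of the pump, had 20.38, 21.71 and 21.34 FPKM in LV-NC and 16.98, 17.82 and 15.54 FPKM in LV-SNORA28. It fell by 20.6% without overlap between the groups (log2 difference -0.32, SE 0.07, limma adjusted p 0.0404). Its adjusted p was between 0.0658 and 0.122 with any library left out. ATP6AP2, the other accessory protein, had a log2 difference of 0.32 with overlapping groups (95% interval -0.04 to 0.67).

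ATP6V1C1, a subunit of the stalk whose release uncouples the sectors, had 12.82, 6.98 and 14.26 FPKM in LV-NC and 18.3, 18.59 and 20.17 FPKM in LV-SNORA28. There was no overlap, and LV-NC replicate 2 lay far below the other controls. The log2 difference was 0.75 (SE 0.23) with a limma adjusted p of 0.0975, and it was 0.46 with an adjusted p of 0.0482 without that library, in a range of up to 0.234 over the alternatives. The other 6 V1 subunits had log2 differences between -0.15 (ATP6V1G1) and 0.24 (ATP6V1H, adjusted p 0.129).

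None of the 5 V0 subunits passed in limma, and 0 had an unadjusted p below 0.05. ATP6V0C, which forms most of the proton-carrying ring, was the most abundant of them, with 69.17, 44.89 and 82.89 FPKM in LV-NC and 83.08, 82.54 and 77.06 FPKM in LV-SNORA28. LV-NC replicate 2 was again the lowest, and the groups overlapped (log2 difference 0.34, 95% interval -0.16 to 0.84). FPKM is scaled to length, so levels can be set side by side, and in LV-NC the means of the pump subunits ran from 4.47 FPKM for ATP6V0A1 to 81.3 FPKM for ATP6V1F.

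The transcription factors in the set, TFEB and TFE3, were measured at low to moderate levels. TFEB (ENSG00000112561; chromosome 6, 41683978 to 41736259, minus strand), the lowest gene of the set, had 0.56, 0.76 and 0.67 FPKM in LV-NC and 0.99, 1.06 and 1 FPKM in LV-SNORA28, without overlap. In the limma fit without a filter its log2 difference was 0.28, with an adjusted p of 0.253. TFE3 had 8.25, 7.49 and 7.26 FPKM in LV-NC and 8.85, 8.25 and 8.26 FPKM in LV-SNORA28, with groups that met at 8.25 FPKM (log2 difference 0.13, limma adjusted p 0.301).

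When the genes were split by the promoter letters shown above, the 7 carriers of TCACGTGA had a median log2 difference of -0.15. Of these, 5 were below 0, against 33.3% of all genes tested and 37.5% of the 208 tested genes that carry the motif, from -0.38 for MCOLN1 to -0.11 for ATP6V0D1, and LAMP1 (0.02) and ATG3 (0.15) were above. The 32 tested genes with an entry but without TCACGTGA had a median of 0.08, with 12 below 0, 4 called higher and 2 called lower. Of the 7 carriers, 0 were called higher in limma (also 0 at an unadjusted p below 0.05) and 2 lower, and over all 208 tested carriers 4.81% were called higher and 1.92% lower. The calls of both carriers were lost with any library left out. After quantile normalization 6 of the 7 carriers, 17 of the 32 other genes and 50.3% of all genes tested were below 0, so these signs depend on the scaling. GABARAP, ULK1 and GABARAPL2 had neither motif in their windows. CTSB and ATP6V1A, also called higher, had no window and are missing from the split. The split was made with the values known and was not tested.

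**Figure D4:**
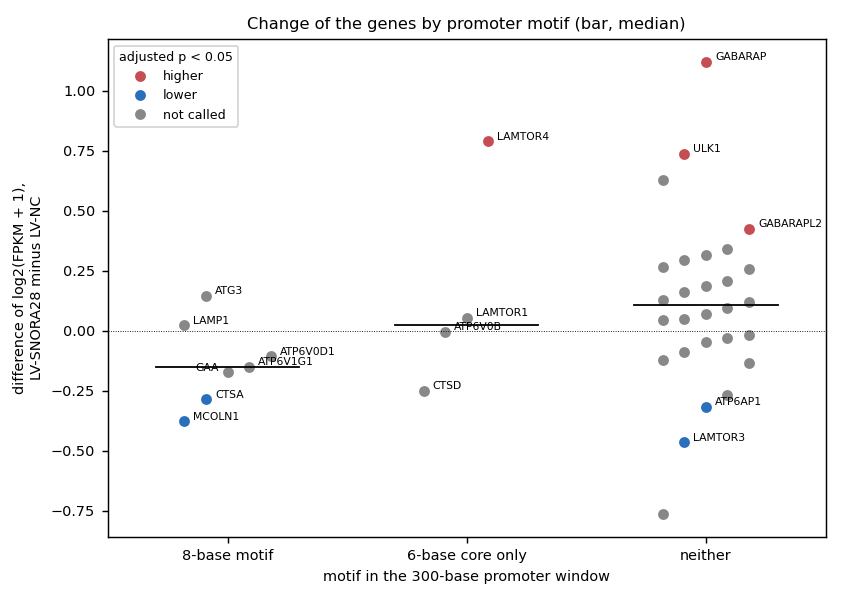
Difference of log2(FPKM + 1), LV-SNORA28 minus LV-NC, of the 39 tested genes with a promoter entry, by the motif in the 300-base window around the start; points are genes, bars are medians and colors give the call. The carriers of the 8-base motif lie between -0.38 and 0.15, while genes with neither motif range from -0.76 to 1.12.

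The balance of roles within a library gave a picture that does not depend on scaling. The 49 genes summed to 1016.65 to 1053.26 FPKM in LV-NC and to 1057.59 to 1107.57 FPKM in LV-SNORA28. Of this sum, the ATG8 family took 5.14% ± 0.633 (SD, n = 3) in LV-NC and 7.85% ± 0.946 in LV-SNORA28, and Ragulator 5.32% ± 0.332 and 6.15% ± 0.307. The lipid-handling proteins NPC2 and PSAP took 23.5% ± 0.423 and 20.5% ± 0.716, and the V-ATPase accessory proteins 2.41% ± 0.181 and 2.02% ± 0.160. These shares, and the small ones of the transcription factors and of the initiation genes, did not overlap between the groups. A share can rest on 1 gene and need not describe its whole role. Of the initiation genes ULK1 alone was called, ATP6AP1 fell while ATP6AP2 did not (log2 difference 0.32), and neither NPC2 nor PSAP passed. The shares of the proteases, the glycosidases, the membrane proteins, both V-ATPase sectors and the conjugation genes overlapped. With 3 libraries against 3, an exact two-sided permutation test cannot go below p = 0.1, so the shares are given without a test.

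**Figure D5:**
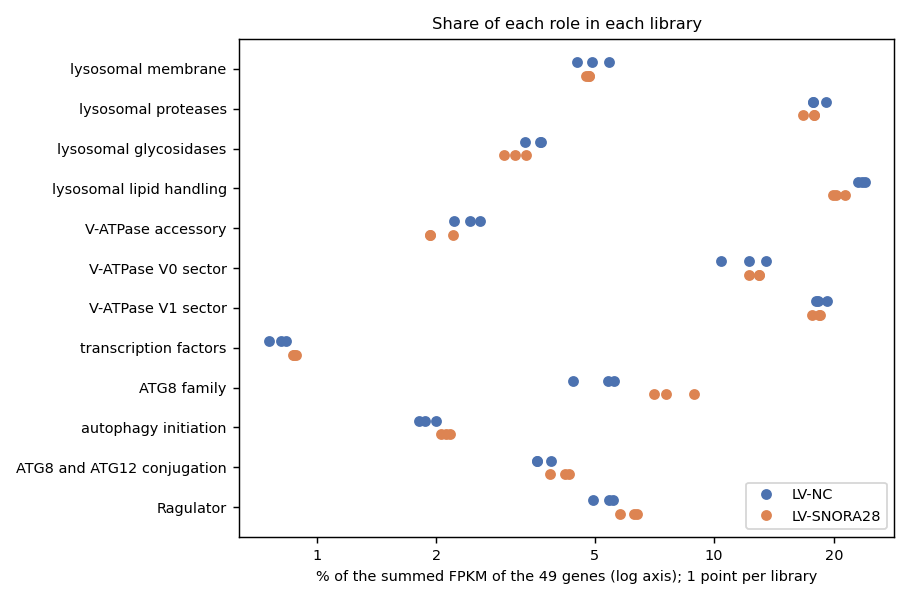
Percent of the summed FPKM of the 49 genes taken by each role, on a log axis, with 1 point per library. The ATG8 family lies at 4.42% to 5.60% in LV-NC and at 7.07% to 8.90% in LV-SNORA28, and the lipid-handling proteins shift the other way, from 23.1% to 23.9% down to 19.9% to 21.3%.

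Other genes of the same pathways were read from a wider list of 107 lysosomal and autophagy genes, of which 89 were tested. Of these, 7 (7.87%) were called higher, against 6.81% of all genes tested, and 2 (2.25%) lower, against 2.10%. After quantile normalization the counts were 5 and 4. The shares of called genes in this list thus lay near those of all genes.

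Among the higher genes, RRAGC, a Rag GTPase that docks on Ragulator, had the largest difference (2.25 ± 0.264 to 4.24 ± 0.07 FPKM, SD, n = 3, limma adjusted p 0.00901). Next came VMP1, an autophagy gene (17.9 ± 1.93 to 28.3 ± 2.58 FPKM, limma adjusted p 0.0178). CTSV, a cysteine protease, went from 2.84 ± 0.108 to 4.85 ± 0.0493 FPKM (limma adjusted p 0.00634). MTOR, the kinase of mTORC1 (log2 difference 0.57, limma adjusted p 0.0308), and OPTN, an autophagy receptor (0.47, 0.0187), followed. TMEM41B (0.44, limma adjusted p 0.0466) and TAX1BP1 (0.38, 0.0373), the remaining 2, were named after their values were seen. The lower genes were both hydrolases: PLBD2 went from 21.8 ± 1.12 to 15.7 ± 1.31 FPKM (log2 difference -0.45, limma adjusted p 0.0224) and NAGLU from 6.85 ± 0.793 to 4.74 ± 0.314 FPKM (log2 difference -0.45, adjusted p 0.0372). SQSTM1, the receptor p62, had 61.4 ± 2.01 and 71.6 ± 2.39 FPKM and did not pass (limma adjusted p 0.0611).

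Of the 7 genes of the wider list with TCACGTGA in a promoter window, PLBD2 alone passed the test, as lower. Of all genes tested 2.10% were called lower, and of the 208 tested carriers 1.92%. The call of PLBD2 was lost under the replicate block and without a filter. The others were IGF2R (-0.21), GNPTG (-0.22), GALNS (-0.18), RRAGB (-0.11), CLN3 (0.08) and NRBF2 (0.20), given as log2 differences.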

How the data were processed

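Poly(A)-selected, dUTP-stranded RNA libraries of HCT116 cells (3 LV-NC, 3 LV-SNORA28) were sequenced as paired ends. Sample titles gave the groups. The authors deposited FPKM values per Ensembl gene, separately for each library. The submitters' processing notes name hg38, cutadapt 1.9, HISAT2 2.2.1, StringTie 2.1.6, DESeq2 and edgeR without roles. The annotation release, strand setting and mapped totals are not given in the sources used here. Whole reads could not be recovered (38.15% to 42.94% of each library's low values came within 0.1 of a whole multiple, where chance gives 20%), so depth is unknown.

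Symbols and coordinates came from GENCODE release 44 (GRCh38), which matched 60401 of 60612 identifiers. All 12076 genes averaging at least 1 FPKM entered 1 fit of log2(FPKM + 1) in limma 3.58.1 with a variance trend, two-sided, with Benjamini-Hochberg adjustment over these genes. The fit was tested on simulated data. Promoter windows came from RefSeq (GRCh38.p14).

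The members and lists were chosen with earlier results of these data known. By rule, values per library were given for genes with an adjusted p below 0.05, the ATG8 family, TFEB, TFE3 and the most and least abundant genes, genes with an adjusted p up to 0.10 were named, and up to 5 genes each way of the wider list. Other genes were named after their values were seen. Alternatives were no trend, quantile normalization, scaling to the nuclear FPKM sum, other filters, another pseudocount (0.1), a block for the replicate number and each library left out.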

Additional observations from a re-analysis of the deposited data

How the results depend on the processing

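Depth is unknown, which limits the precision of genes near 1 FPKM such as TFEB, and with 3 libraries per group every fit that left out a library made fewer calls. Replicate numbers gave no pairing: same-numbered libraries had correlations of -0.0441, 0.0914 and 0.00983 between their deviations across genes. Under a replicate block, 510 genes were called in place of 1076, 3 members higher (CTSB, LAMTOR4, ULK1) in place of 6, and 0 lower in place of 4 in limma, although the same number, 4, were lower at an unadjusted p below 0.05. The wider list had 4 higher and 0 lower with the block, with 10 lower at an unadjusted p below 0.05. Without a filter, where 32761 genes were tested, 397 genes were called, 0 members lower (4 at an unadjusted p below 0.05), and 3 higher and 0 lower in the wider list (8 lower unadjusted). Without a trend 2 members were lower, and with a mean of at least 5 FPKM, which left out LAMTOR3 and MCOLN1, also 2, while MAP1LC3B and ATG5 then passed. Quantile normalization gave 451 higher and 375 lower genes in place of 822 and 254, moved the median log2 difference of the members from 0.06 to -0.034 and that of all genes from 0.09 to -0.00127, and gave 4 lower genes in the wider list.

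With 1 library left out, the calls ranged from 278 (without LV-SNORA28 replicate 2) to 629 over all genes, from 3 to 5 for higher members, from 0 to 1 for lower members (4 to 7 at an unadjusted p below 0.05), from 2 to 6 for higher genes of the wider list and from 0 to 2 for lower ones (4 to 8 unadjusted). CTSB, LAMTOR4 and ULK1 passed in all 6 of these fits, with log2 differences of 0.77 to 0.90, 0.74 to 0.84 and 0.70 to 0.79. GABARAPL2 passed in 4, GABARAP in 2, LAMTOR3 in 1, and MCOLN1, CTSA, ATP6AP1 and ATP6V1A in 0, all of them with the sign of the full fit. Over 16 members (the 10 that passed, ATG5, MAP1LC3B, ATP6V1C1, GABARAPL1, PSAP and TFE3) and these alternatives, 149 of 205 values kept their direction and side of the threshold, 51 fell short of it, 5 came to pass it and 0 changed sign. The cause of these changes was not tested beyond the smaller number of libraries or the larger number of genes tested.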
